A study of Mus musculus with 16 samples.

Results

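The genes described here are 40 genes of the cell cycle and of DNA replication, read in 16 bulk RNA-seq libraries from MC38 tumors. Members were a named list of S phase and mitosis genes, matched by symbol to the count table. All 40 were found among the 53465 genes of the table, and all 40 were among the 18251 genes that passed the filter on low counts. MC38 is a mouse colon adenocarcinoma line, and its cells were placed under the skin of the right flank of female C57BL/6 mice aged 6 to 8 weeks. Mice were enrolled on day 16, at a tumor volume of 150 to 250 mm3, and received 200 ug of an IgG control antibody (n = 8) or of an antibody against PD-1 (aPD-1, n = 8) on days 16 and 20. Tumors were taken on day 21, that is 5 days after the first dose. The study designated 6 of the aPD-1 tumors as non-responders (NR, replicates 9 to 14) and 2 as responders (R, replicates 15 and 16) from their staining for CD8 T cells. Each tumor came from another mouse, and RNA was extracted from 2 frozen sections of 100 um, so every library mixes cancer cells with the host cells around them. In such samples, fewer cells of a type and less RNA per cell cannot be told apart.

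A dividing cell copies its DNA in S phase and separates the copies in mitosis. Cyclin D and cyclin E kinases release E2F transcription factors from RB family proteins, and E2F then drives the genes that load and fire replication origins and that supply nucleotides. Later in the cycle, B-MYB (Mybl2) and FOXM1 drive the genes of mitotic entry and of the spindle, and the resulting sets of transcripts are commonly read as a measure of proliferation in tumors. The 40 members were ordered here into 6 roles: entry into S phase (5 genes), replication licensing and the replication fork (10), nucleotide supply (3), G2/M control (9), the spindle checkpoint and anaphase (5), and the spindle, kinetochore and mitotic chromosome (8). Mybl2 was placed with entry into S phase, though the genes that B-MYB drives act later.

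Many promoters of mitotic genes carry a cell cycle homology region (CHR) beside CCAAT boxes, and many replication genes carry E2F sites. Promoter windows of 300 bases, from 250 before to 50 after the transcription start, were given by RefSeq (GRCm38.p6) for 30 of the 40 members. No window was given for Ccnd1, Ccne2, Mcm4, Gins2, Ccna2, Cdc25c, Foxm1, Aurkb, Kif20a and Tpx2. The letters TTTGAA or TTCGAA (CHR), on either strand, stood in windows of 16 of the 30 members (51.6% of 31 windows, against 19.2% of all 32851 windows in the table). Of the members of the 3 mitotic roles, 16 had a window, and 13 of these held the CHR letters. All 16 members with CHR letters also held the letters CCAAT, which were in 80.6% of member windows and 37.4% of all windows. The E2F letters TTTCCCGC, TTTCGCGC, TTTGCCGC or TTTGGCGC were in windows of 6 members, 5 of them replication genes, and in 2.27% of all windows. A match is a description of the letters and not evidence of binding. Windows of 150 bases, from 120 before to 30 after the start, are given for 5 mitotic members, Cdk1, Ccnb2, Kif23 and Ube2c as called members and Cdc20 as the checkpoint gene of highest level per length, and for 2 replication members to show E2F letters. Capitals mark the CHR and CCAAT letters, which do not overlap in the windows shown, in the first 5, and the E2F letters, some of which overlap each other, in the last 2:
Cdk1, chr10:69352883-69353032, minus strand: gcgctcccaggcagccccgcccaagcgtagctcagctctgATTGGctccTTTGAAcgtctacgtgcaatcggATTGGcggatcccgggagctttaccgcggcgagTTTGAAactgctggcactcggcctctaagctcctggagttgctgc
Ccnb2, chr9:70421525-70421674, minus strand: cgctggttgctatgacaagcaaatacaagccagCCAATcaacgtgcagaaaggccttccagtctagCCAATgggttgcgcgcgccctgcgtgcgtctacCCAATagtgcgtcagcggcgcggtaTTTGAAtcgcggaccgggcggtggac
Kif23, chr9:61946770-61946919, minus strand: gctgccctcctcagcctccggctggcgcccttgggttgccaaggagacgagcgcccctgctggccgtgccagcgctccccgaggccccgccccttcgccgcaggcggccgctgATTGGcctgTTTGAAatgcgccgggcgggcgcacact
Cdc20, chr4:118437314-118437463, minus strand: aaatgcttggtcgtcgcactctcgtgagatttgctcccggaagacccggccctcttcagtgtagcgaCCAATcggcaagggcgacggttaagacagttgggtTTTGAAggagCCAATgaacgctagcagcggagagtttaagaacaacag
Ube2c, chr2:164769809-164769958, plus strand: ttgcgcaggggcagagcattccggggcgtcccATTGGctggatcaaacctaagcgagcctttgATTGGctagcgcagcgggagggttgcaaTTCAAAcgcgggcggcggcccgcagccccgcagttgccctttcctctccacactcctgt
Mcm3, chr1:20820283-20820432, minus strand: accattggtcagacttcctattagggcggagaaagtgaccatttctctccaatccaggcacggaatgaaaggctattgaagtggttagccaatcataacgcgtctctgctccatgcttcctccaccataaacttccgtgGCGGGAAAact
Mcm6, chr1:128359676-128359825, minus strand: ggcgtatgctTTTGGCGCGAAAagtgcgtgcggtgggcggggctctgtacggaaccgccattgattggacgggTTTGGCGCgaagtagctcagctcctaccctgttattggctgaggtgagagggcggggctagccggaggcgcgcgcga

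Each library held 26603449 to 39948866 counts (median 34105782). In IgG replicate 1 and NR replicates 9 and 14, the mitochondrially encoded protein genes held 7.32%, 5.80% and 5.54% of counts. In the other 13 tumors they held 1.84% to 3.15%. The 3 libraries over 5% were set apart after their values were seen, and leaving them out was not planned. Comparisons of the members are therefore given for all 16 tumors and without these 3. IgG replicate 3, which was kept, held 20.4% of its counts in 1 gene, CT010467.1. In the other tumors the largest gene held 0.878% to 2.19% of counts. The factor that scaled library size (TMM) was 0.784 for IgG replicate 3 and 0.981 to 1.07 for the others. The defining markers of colon epithelium were near 0 in the IgG and NR tumors, where 9 of them (Epcam, Krt8, Krt18, Krt19, Krt20, Cdh1, Cdh17, Vil1 and Cdx2) summed to 5.00 to 13.5 CPM (counts scaled to library size), and to 119 and 52.0 CPM in responder replicates 15 and 16, where Cdx2 was at 0.

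The highest member level per length was that of Pcna, the sliding clamp of the replication fork, at 158 ± 29.8 CPM per kilobase of exon (SD, n = 8) over the IgG controls. Ccnd1, cyclin D1, followed at 119 ± 14.9, then Top2a, the topoisomerase that untangles DNA in mitosis, at 98.3, and Rrm2, a subunit of ribonucleotide reductase, at 71.7 CPM per kilobase. The SDs of neighbours in this order overlapped. Cdc25c, the phosphatase that activates CDK1, and Tyms, thymidylate synthase, were lowest, at 5.85 and 5.67 CPM per kilobase. Ranks 1 to 5, from Pcna to Mcm6, were the same in all 3 groups. Between tumors of 1 group, levels of a gene are given below in CPM scaled by TMM, and fold changes come from edgeR's quasi-likelihood test, adjusted by Benjamini-Hochberg over all 18251 genes, with calls at an adjusted p below 0.05.

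In responders, the median member of each role was lower than in non-responders in value. Cdc25c, Cdk1, Birc5, Aurkb, E2f1, Ccnb2, Ccnd1 and Kif23 passed the test, all lower in responders, by 0.36 to 0.82 on the log2 scale. These 8 were 20% of the members, against 4.34% of all genes tested that were called lower, and 0 members were called higher, against 15.4% of all genes. At an unadjusted p below 0.05 there were 15 lower members, against 10.4% of all genes. The median log2 fold change of the 40 was -0.34, beside 0.02 over all genes, and 36 of 40 were below 0. No member was called with a change above 2-fold, which 0.663% of all genes passed in the lower direction. Both responders lay below all 6 NR tumors for 13 members, or 32.5%, against 13.2% of all genes, and above all 6 for 0 members, against 21.5%. By role, the median log2 fold change was -0.44 for G2/M control, -0.38 for the checkpoint genes, -0.38 for S phase entry and -0.33 for the spindle genes, but -0.13 for replication and -0.14 for nucleotide supply. Without the 3 tumors of high mitochondrial share the medians were -0.29 for replication, -0.33 for nucleotide supply and -0.41 for S phase entry, and -0.58, -0.56 and -0.52 for the checkpoint genes, G2/M control and the spindle genes. Without responder replicate 15, which leaves 1 responder assumed to vary like the other groups, 1 member was called, though the log2 fold changes of the 8 genes were still -0.41 to -0.69. Without replicate 16 there were 7, and without IgG replicate 1 there were 14. The share of all genes called was not worked out for these fits with a tumor left out. Differences between roles were not tested.

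**Figure D1:**
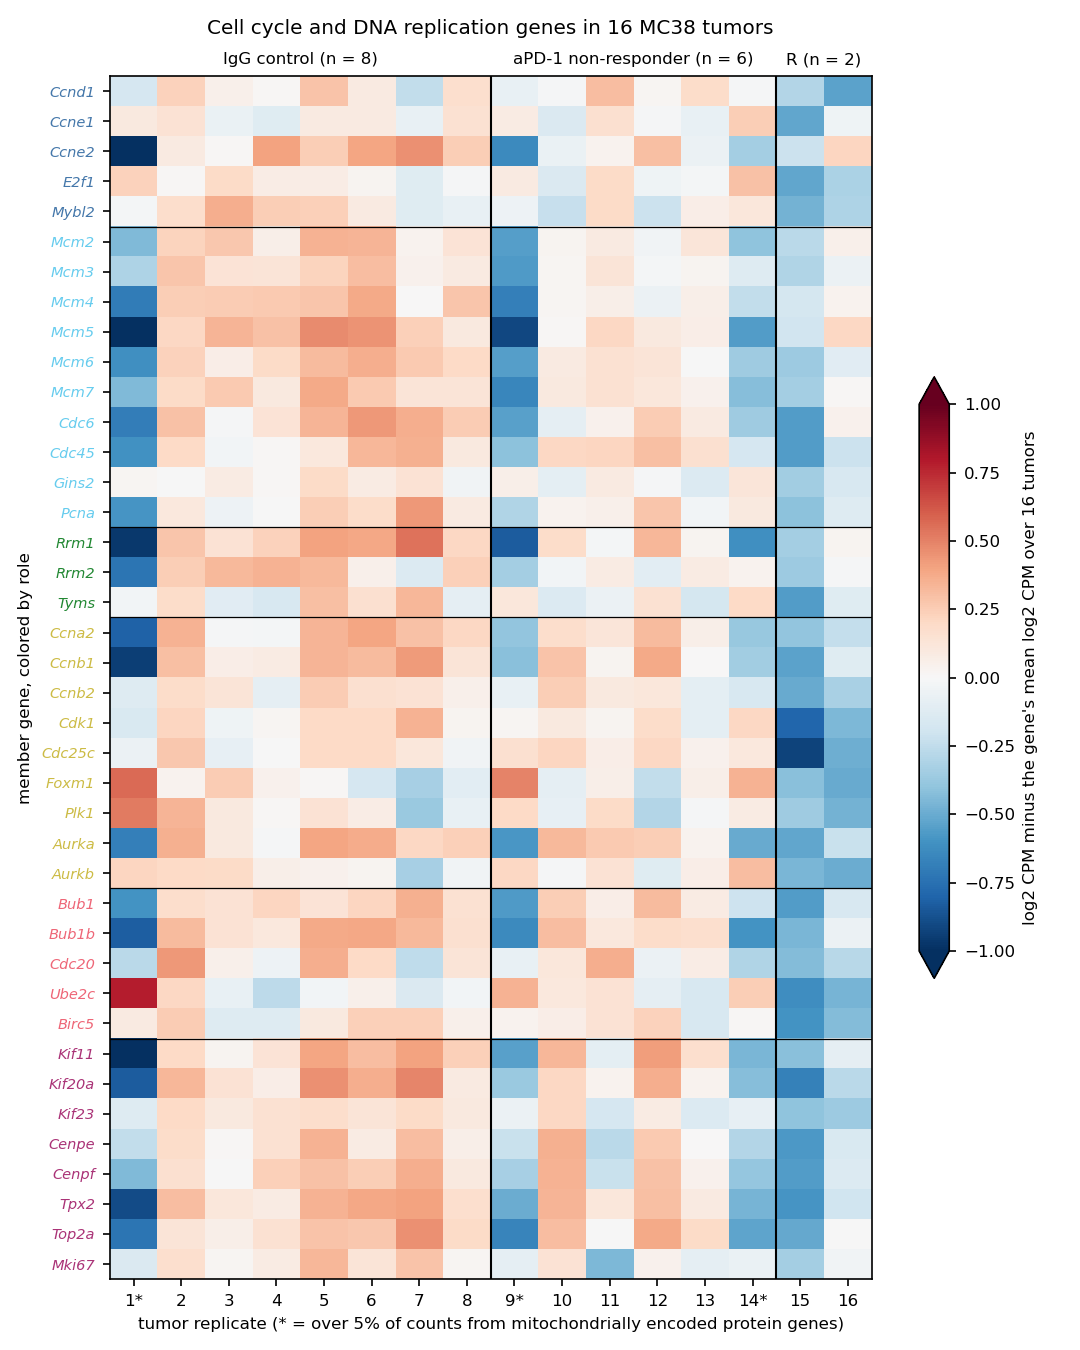
Log2 CPM of each of the 40 members (rows, colored by role) in each of the 16 tumors (columns), as the difference from that gene's mean over the 16 tumors. Replicates 15 and 16 are below the mean for most genes, with replicate 15 the lower for 36 of 40, and the starred tumors 1, 9 and 14 are low for many replication and spindle genes and high for Foxm1, Ube2c and Aurkb.

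Of the G2/M control genes, 4 of 9 passed against non-responders and all 9 were lower in value. Cdc25c measured 14.3 and 19.4 CPM in responder replicates 15 and 16, against a lowest, median and highest of 27.99, 29.8 and 31.6 CPM in non-responders and of 25.8, 28.3 and 32.8 CPM in IgG controls. Both responders were thus below every other tumor. Its log2 fold change was -0.82 (SE 0.14, adjusted p = 0.000323, edgeR's quasi-likelihood test). Cdk1, the kinase that starts mitosis (ENSMUSG00000019942, GRCm38 chr10:69335146-69352938), measured 119 and 149.9 CPM in the responders, 191, 214 and 236 CPM in non-responders and 185, 222 and 261 CPM in IgG controls, again with no overlap. Its log2 fold change was -0.69 (SE 0.15, adjusted p = 0.00259). Ccnb2, a cyclin partner of CDK1, measured 43.0 and 48.6 CPM, against 54.6, 61.5 and 72.3 CPM in non-responders. The responders lay below all of these, with a log2 fold change of -0.44 (SE 0.13, adjusted p = 0.0249). Aurkb, the kinase of the chromosomal passenger complex, measured 41.9 and 40.7 CPM, against 52.7, 61.9 and 71.1 CPM in non-responders and 45.6 to 66.5 CPM in IgG controls. Its log2 fold change was -0.58 (SE 0.14, adjusted p = 0.00788).

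The other 5 genes of that role did not pass against non-responders. Foxm1, the transcription factor of the late cycle, was at 68.0 and 63.9 CPM in responders, below the lowest NR tumor at 76.6 CPM and the lowest IgG tumor at 72.1 CPM, with a log2 fold change of -0.59 (SE 0.22, adjusted p = 0.0695). Its highest values, 135 and 128 CPM, were those of IgG replicate 1 and NR replicate 9. Plk1, a kinase with roles from mitotic entry to exit, was at 34.4 and 31.6 CPM, just below the lowest NR tumor at 35.9 CPM, with a log2 fold change of -0.44 (SE 0.19, adjusted p = 0.117). Ccna2 and Ccnb1, the cyclins A2 and B1, and Aurka, the centrosome kinase, had log2 fold changes of -0.33, -0.33 and -0.37 with SEs of 0.26 to 0.28. For Ccna2, for example, the responders measured 125 and 139.5 CPM and NR replicates 9 and 14 measured 126 and 127 CPM, so that the groups overlapped.

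Of the 5 spindle checkpoint and anaphase genes, Birc5 passed. Birc5, survivin of the chromosomal passenger complex (ENSMUSG00000017716, GRCm38 chr11:117849251-117855743), measured 72.2 and 81.0 CPM in responders, 97.9, 113 and 128 CPM in non-responders and 99.9, 117 and 130.3 CPM in IgG controls. The 2 responders were below all 14 other tumors. Its log2 fold change was -0.57 (SE 0.13, adjusted p = 0.00574). Ube2c, the ubiquitin-conjugating enzyme of the anaphase-promoting complex, measured 79.2 and 88.4 CPM, against 109 to 156 CPM in non-responders and 102 to 211 CPM in IgG controls. The groups did not overlap, but its log2 fold change of -0.65 had an SE of 0.23 and an adjusted p of 0.0524. Cdc20, an activator of the same complex and the member of highest level per length in this role, measured 65.8 and 73.6 CPM against 72.0, 89.6 and 114 CPM, with a log2 fold change of -0.38 (SE 0.19, adjusted p = 0.188). The checkpoint kinases Bub1 and Bub1b had values of -0.37 and -0.21 (adjusted p 0.31 and 0.681).

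Kif23, a motor of the central spindle needed for cytokinesis, was the 1 of 8 spindle, kinetochore and chromosome genes called, and lost this call in 8 of 24 alternatives. It measured 65.3 and 67.2 CPM in responders, 77.0, 82.4 and 99.6 CPM in non-responders and 78.9, 95.4 and 99.1 CPM in IgG controls. No other tumor was as low as the responders, and the log2 fold change was -0.36 (SE 0.12, adjusted p = 0.0382). Top2a measured 565 and 805 CPM in responders, 509, 861 and 1048 CPM in non-responders and 487, 909 and 1106 CPM in IgG controls, with a log2 fold change of -0.23 (SE 0.29, adjusted p = 0.651). Mki67, which encodes the Ki-67 proliferation antigen, measured 319 and 394 CPM, against 297, 382 and 446 CPM in non-responders. The responders lay inside the NR range, and the log2 fold change was -0.11 (SE 0.15, adjusted p = 0.708). The motors Kif11 and Kif20a, the kinetochore proteins Cenpe and Cenpf and the spindle factor Tpx2 had log2 fold changes of -0.26 to -0.46, with the smallest adjusted p at 0.244.

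**Figure D2:**
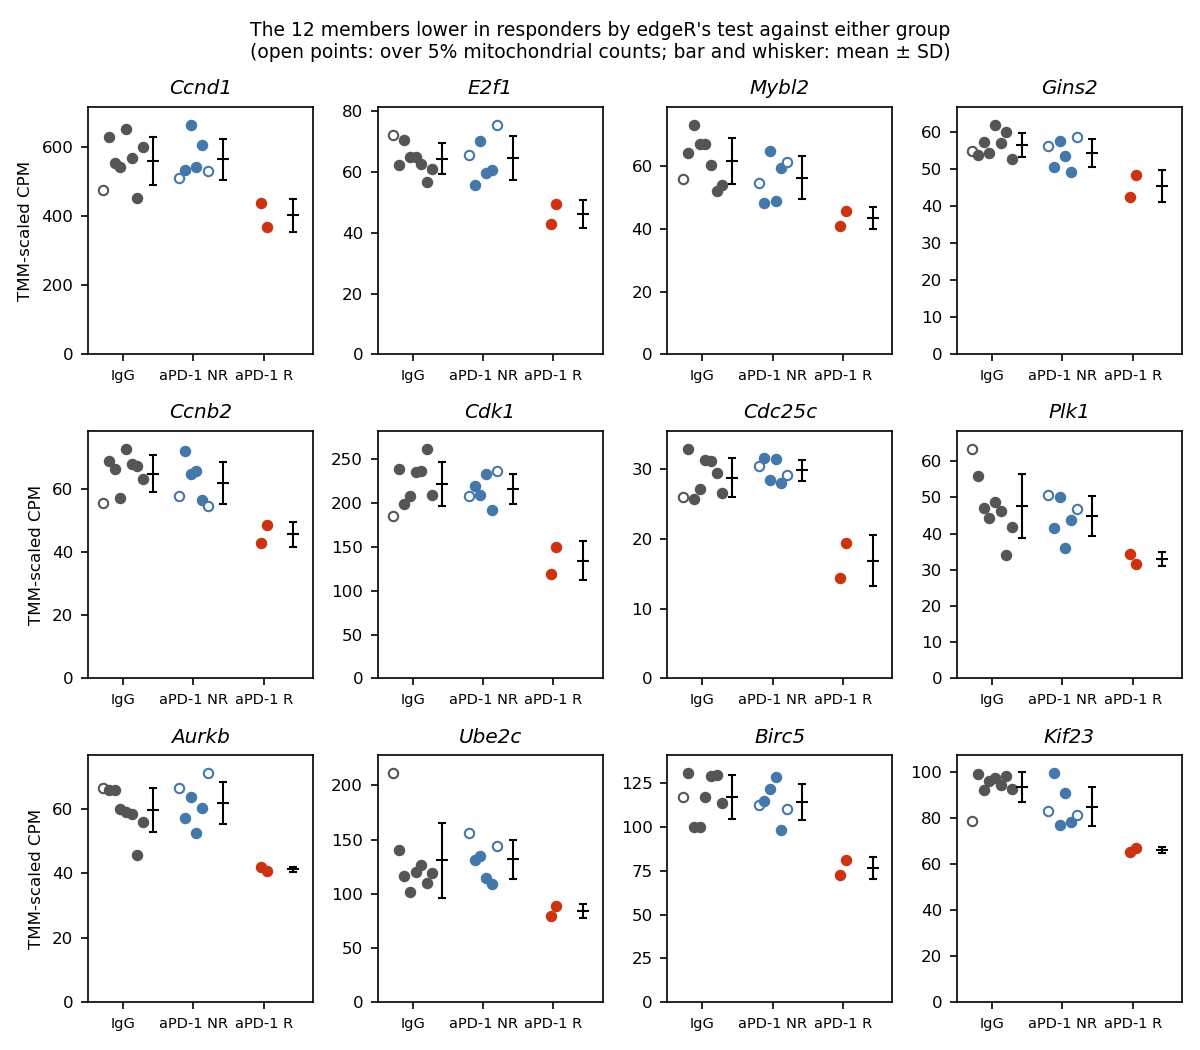
TMM-scaled CPM of the 12 members called lower in responders against either group, by tumor, in IgG controls (grey), aPD-1 non-responders (NR, blue) and aPD-1 responders (R, red). Open points are the 3 tumors with over 5% mitochondrial counts, and the bar and whisker give the mean ± SD. Both responders are below all NR tumors in each panel, and below all IgG tumors except for Plk1.

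Among the 5 genes of entry into S phase, Ccnd1 and E2f1 passed. Ccnd1 (ENSMUSG00000070348, GRCm38 chr7:144929931-144939925) measured 437 and 369.7 CPM in responder replicates 15 and 16, 511, 538 and 664 CPM in non-responders and 452, 562 and 653 CPM in IgG controls. It was one of the 4 members, with Foxm1, Plk1 and Aurkb, for which replicate 16 was the lower responder. Its log2 fold change was -0.49 (SE 0.15, adjusted p = 0.0346), and this call was lost in 6 of 24 alternatives. E2f1 measured 43.0 and 49.6 CPM against 55.8, 63.1 and 75.4 CPM in non-responders, and its log2 fold change was -0.48 (SE 0.13, adjusted p = 0.0126). Mybl2 measured 40.9 and 45.9 CPM against 48.4, 57.2 and 65.0 CPM, also without overlap, with a log2 fold change of -0.38 (SE 0.15, adjusted p = 0.0881). The 2 cyclins E differed in sign, with -0.31 for Ccne1 (adjusted p = 0.135) and 0.11 for Ccne2 (adjusted p = 0.847).

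None of the 10 replication genes passed against non-responders. Gins2, a subunit of the GINS complex of the replicative helicase, was at 42.3 and 48.4 CPM in responders, below the lowest NR tumor at 49.2 CPM, with a log2 fold change of -0.26 (SE 0.10, adjusted p = 0.0943). It had the smallest spread of all members over the IgG controls, 52.7 to 61.7 CPM (coefficient of variation 5.55%), and Ube2c had the largest (26.3%, or 10.3% without IgG replicate 1). Pcna measured 271 and 329 CPM, against 293, 371 and 436 CPM in non-responders, with a log2 fold change of -0.30 (SE 0.20, adjusted p = 0.354). Cdc45, a further subunit of that helicase, had -0.45 (SE 0.22, adjusted p = 0.182), and Cdc6, which loads the helicase, -0.15. The 6 subunits of the MCM helicase, Mcm2 to Mcm7, had log2 fold changes from -0.17 for Mcm6 to 0.15 for Mcm5, with SEs of 0.17 to 0.31. Mcm4 measured 103 and 119.7 CPM in responders and 72.7, 115 and 122 CPM in non-responders, so that the responders lay inside the range. Of the nucleotide genes, Rrm2 measured 142 and 181 CPM against 145, 184 and 194 CPM (log2 fold change -0.14, adjusted p = 0.733), and Rrm1 and Tyms had values of -0.05 and -0.35.

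Against the IgG controls, 12 members passed, all lower in responders, and all 40 were lower in value. They were 30% of the members, beside 5.17% of all genes called lower, and 0 were called higher, beside 17.7%. The 12 included the 8 named above plus Mybl2, Gins2, Ube2c and Plk1. Both responders lay below all 8 IgG tumors for 13 members, or 32.5%, against 9.67% of all genes, and above all 8 for 0, against 19.3%. No member was called with a change above 2-fold, beside 0.641% of all genes. The median log2 fold change was -0.45, beside -0.02 over all genes, and reached -0.52 for G2/M control and -0.31 for replication. The 4 members of smallest p were Cdc25c (-0.77, SE 0.13, adjusted p = 0.000344), Cdk1 (-0.72, SE 0.14, adjusted p = 0.00117), Birc5 (-0.61, SE 0.13, adjusted p = 0.00248) and Kif23 (-0.50, SE 0.12, adjusted p = 0.00409). Mybl2 was called at -0.51 (adjusted p = 0.0165), Gins2 at -0.31 (adjusted p = 0.0312), Ube2c at -0.64 (adjusted p = 0.0444) and Plk1 at -0.53 (adjusted p = 0.0458), of which the last 2 lost their call in 13 of 24 alternatives each. This comparison shares its responders with the one against non-responders and is not independent of it. For the fits below with a tumor left out, the share of all genes called was not worked out. Without responder replicate 15, 1 member was called, without replicate 16, 10 were, and without IgG replicate 1, 30 were.

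Non-responders and IgG controls were not told apart by any member. By edgeR's quasi-likelihood test 0 of 40 were called, as were 0 of all genes (0%), and 0 members had an unadjusted p below 0.05, against 2.56% of all genes in the higher and 1.24% in the lower direction. DESeq2 also called 0 members. The 2 groups overlapped for all 40 members, and were without overlap in 0.0164% (NR higher) and 0.0219% (NR lower) of all genes. The median log2 fold change was -0.13, with 33 of 40 below 0 and values from -0.32 for Mcm5 to 0.06 for Foxm1. The 2 members of smallest p were Mki67, at -0.19 (SE 0.10), and Mcm4, at -0.28 (SE 0.15), both with an adjusted p of 0.987. Mki67 measured 297, 382 and 446 CPM in non-responders and 366, 435 and 507 CPM in IgG controls, and Mcm4 measured 72.7, 115 and 122 CPM against 71.9, 140.0 and 152 CPM.

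The 8 aPD-1 tumors as 1 group gave the same count against the IgG controls, with 0 of 40 members called by edgeR or DESeq2 and 0% of all genes by edgeR, while 4 members (Kif23, Mki67, Mcm3 and Mybl2) had an unadjusted p below 0.05 in the lower direction, against 2.24% of all genes. All 40 were lower in value, with a median of -0.19 and a range of -0.31 to -0.06 on the log2 scale. Kif23 had the smallest p, at -0.22 (SE 0.09, adjusted p = 0.268), followed by Mki67 at -0.22 (SE 0.09, adjusted p = 0.309). This mean over 8 tumors holds the 2 responders.

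The 3 tumors with a high mitochondrial share were as low as the responders for many members. Their summed level of the 40 members was 4684 to 5410 CPM, against 6440 to 7575 CPM in the other 11 IgG and NR tumors and 4589 and 5585 CPM in responder replicates 15 and 16. Of the members, 20 were below all other IgG and NR tumors in all 3, against 16.6% of all genes tested, and 3 were above all, Foxm1, Aurkb and Ube2c, against 15.8%. The median difference of mean log2 CPM was -0.47, from -1.06 for Mcm5 and -1.05 for Rrm1 to 0.49 for Ube2c and 0.51 for Foxm1. By role it was -0.64 for replication and -0.67 for the spindle genes, against -0.08 for G2/M control and -0.05 for S phase entry. Mcm5, for example, measured 63.6, 68.8 and 87.8 CPM in IgG replicate 1 and NR replicates 9 and 14, and 131 to 179 CPM in the other 11. Ube2c measured 211, 156 and 144 CPM in the same 3 tumors, and 102 to 141 CPM in the others. Across the 40 genes, this difference went with the GC content of the longest coding transcript at r = 0.53 (Spearman's rho 0.50) and with its length at r = -0.13. The genes share these libraries and are not independent replicates, and the part of GC content, RNA quality or cell content in the difference was not tested.

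**Figure D3:**
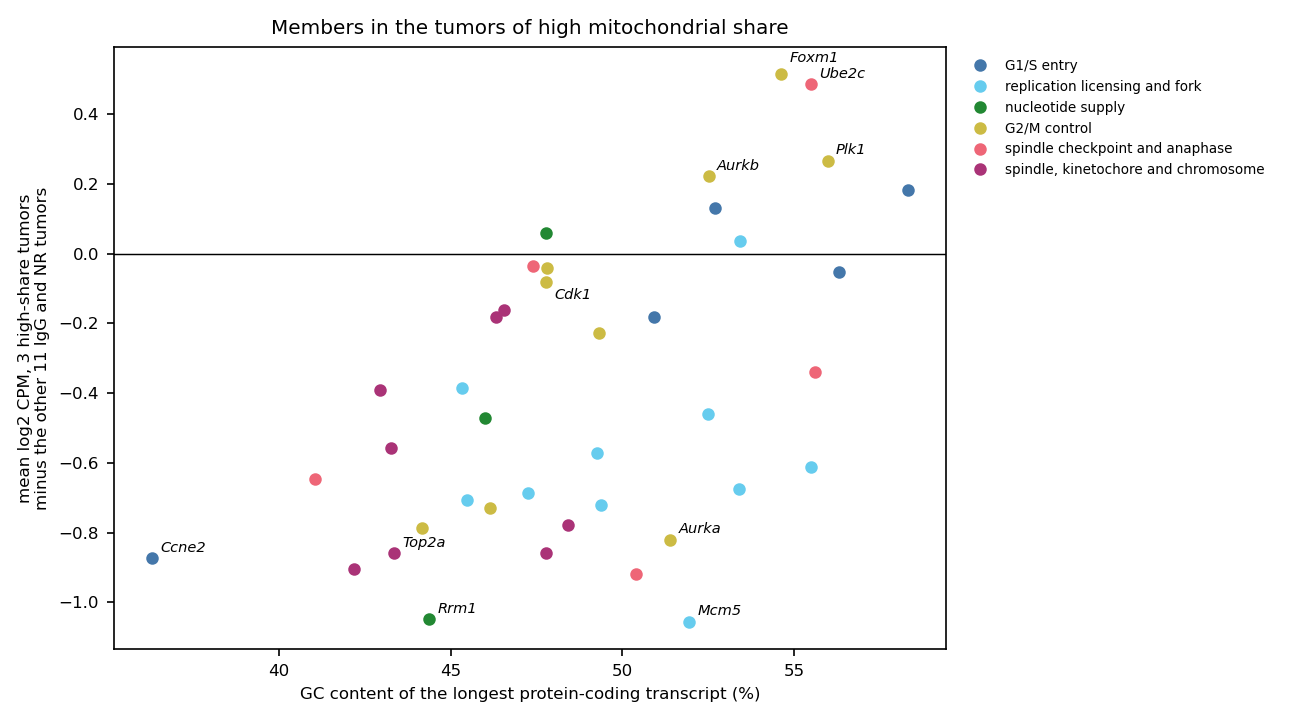
Mean log2 CPM of each member in the 3 tumors of high mitochondrial share (IgG replicate 1, NR replicates 9 and 14) minus its mean in the other 11 IgG and NR tumors (y axis), against the GC content of the gene's longest protein-coding transcript in percent (x axis), colored by role. Most of the points above 0 are at a GC content over 50%, and Mcm5, Bub1b and Aurka are low at such a content too.

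Without these 3 tumors, which were set apart after their values were seen, members of every role except nucleotide supply were called against non-responders. In this fit of 13 tumors (7 IgG, 4 NR and 2 R), 29 of 40 members were lower in responders than in non-responders, beside 14.7% of the 17822 genes tested, and 39 of 40 were lower than in IgG controls, beside 19.6%. No member was called higher, beside 17.8% and 22% of all genes. Each of the 40 was lower in value in both comparisons, with medians of -0.48 and -0.55. The 11 members not called against non-responders were Ccne1, Ccne2, Mcm2, Mcm4, Mcm5, Cdc6, Rrm1, Rrm2, Tyms, Plk1 and Mki67, and the 1 not called against IgG controls was Ccne2. All 8 genes called in 16 tumors were among the 29. The value moved most for Rrm1, from -0.05 to -0.34 (SE 0.14, adjusted p = 0.0696), followed by Mcm5, from 0.15 to -0.13, and Top2a, from -0.23 to -0.51 (SE 0.15, adjusted p = 0.0176). Cdk1 was at -0.72 (SE 0.13, adjusted p = 0.000913). Mki67 stayed at -0.16 (SE 0.15, adjusted p = 0.425) against non-responders, and reached -0.39 (SE 0.14, adjusted p = 0.0385) against IgG controls. Between the 4 remaining NR and 7 IgG tumors 0 members were called (1 gene of all, 0.00561%, was higher), with a median of -0.07, and 0 of 40 were called for all aPD-1 tumors, with DESeq2 calling 3. The counts of 29 and 39 members lower in responders became 9 and 12 with scaling by total counts alone. The share of all genes called was not worked out for this scaling or for DESeq2. Without responder replicate 15, which leaves 1 responder, the medians of -0.48 and -0.55 became -0.29 and -0.35. With the log2 mitochondrial share as a covariate in place of leaving tumors out, 17 members were lower than in non-responders (8.77% of all genes, with 18.8% higher) and 22 lower than in IgG controls (11.4%, with 22% higher), and 0 differed between non-responders and IgG controls (0.00548% of all genes were higher).

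**Figure D4:**
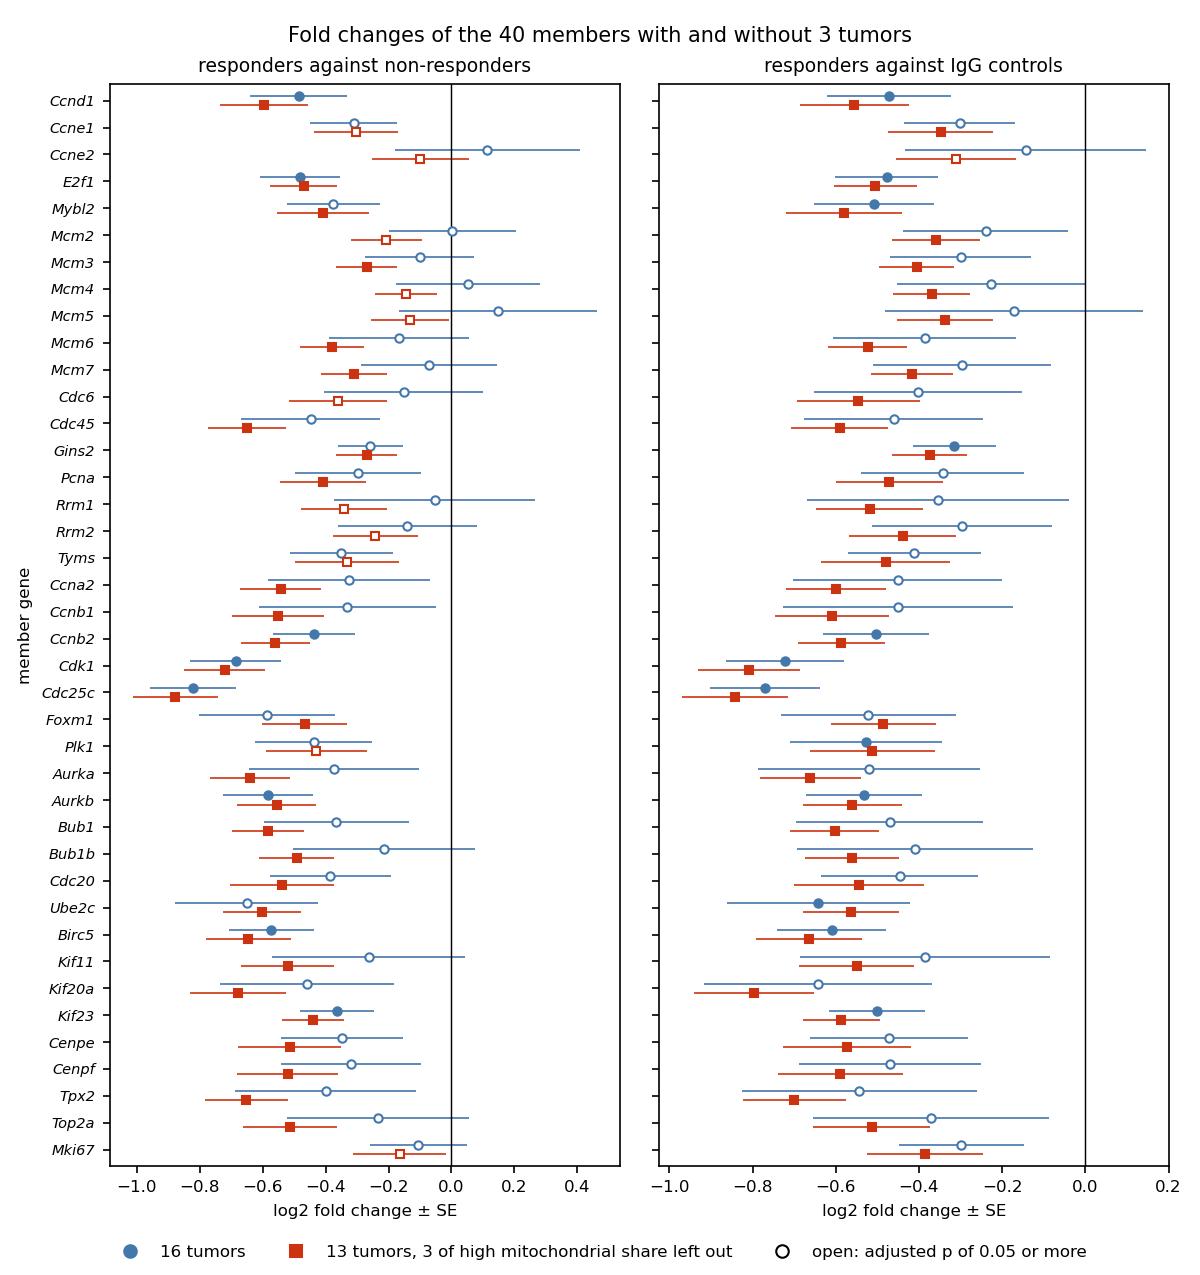
Log2 fold change ± SE of each member from edgeR for responders against non-responders (left) and against IgG controls (right), in all 16 tumors (blue circles) and in the 13 tumors without a high mitochondrial share (red squares). Filled symbols have an adjusted p below 0.05: 8 and 12 members in 16 tumors and 29 and 39 in 13.

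The 2 responders were not alike. Replicate 15 was lower than replicate 16 for 36 of 40 members, and the mean log2 deviation of the members from their mean over 16 tumors was -0.46 in replicate 15 and -0.19 in replicate 16, against 0.02 to 0.26 in the 11 IgG and NR tumors of low mitochondrial share. For 25 members both responders were below all of those 11 tumors, against 13.6% of all genes, and for 0 they were above all, against 20.5%. In replication the mean deviation was -0.35 in replicate 15 and -0.03 in replicate 16, and in nucleotide supply -0.42 and -0.04. In G2/M control both were low, at -0.54 and -0.37. Markers of other cell types moved with the responders. The 9 T cell markers summed to 310.3 and 282 CPM in replicates 15 and 16, against 10.3 to 42.2 CPM in the other 14 tumors, and all 9 were called higher against non-responders. Responders were designated by CD8 T cell staining and this list holds Cd8a and Cd8b1, so these calls are not independent of the grouping. The 8 B cell markers summed to 1245 and 310.4 CPM against 1.55 to 7.97 CPM (8 of 8 higher), and 5 adipocyte markers to 1180 and 213 CPM against 16.0 to 79.6 CPM (5 of 5 higher). Of 8 macrophage and monocyte markers 1 was called higher, of 7 fibroblast markers 1, and of 5 endothelial markers 3, beside the 15.4% of all genes called higher. Replicate 15, which had the lower members, also had higher sums than replicate 16 for most of the marker lists read. These were T cell, B cell, germinal center B cell, plasma cell, fibroblast, endothelial, adipocyte, keratinocyte and colon epithelium markers. The sums of macrophage and monocyte markers and of skeletal muscle markers were higher in replicate 16. This order compares 1 tumor with 1 other and singles out no cell type. The part of these cell types in the lower member levels was not tested.

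**Figure D5:**
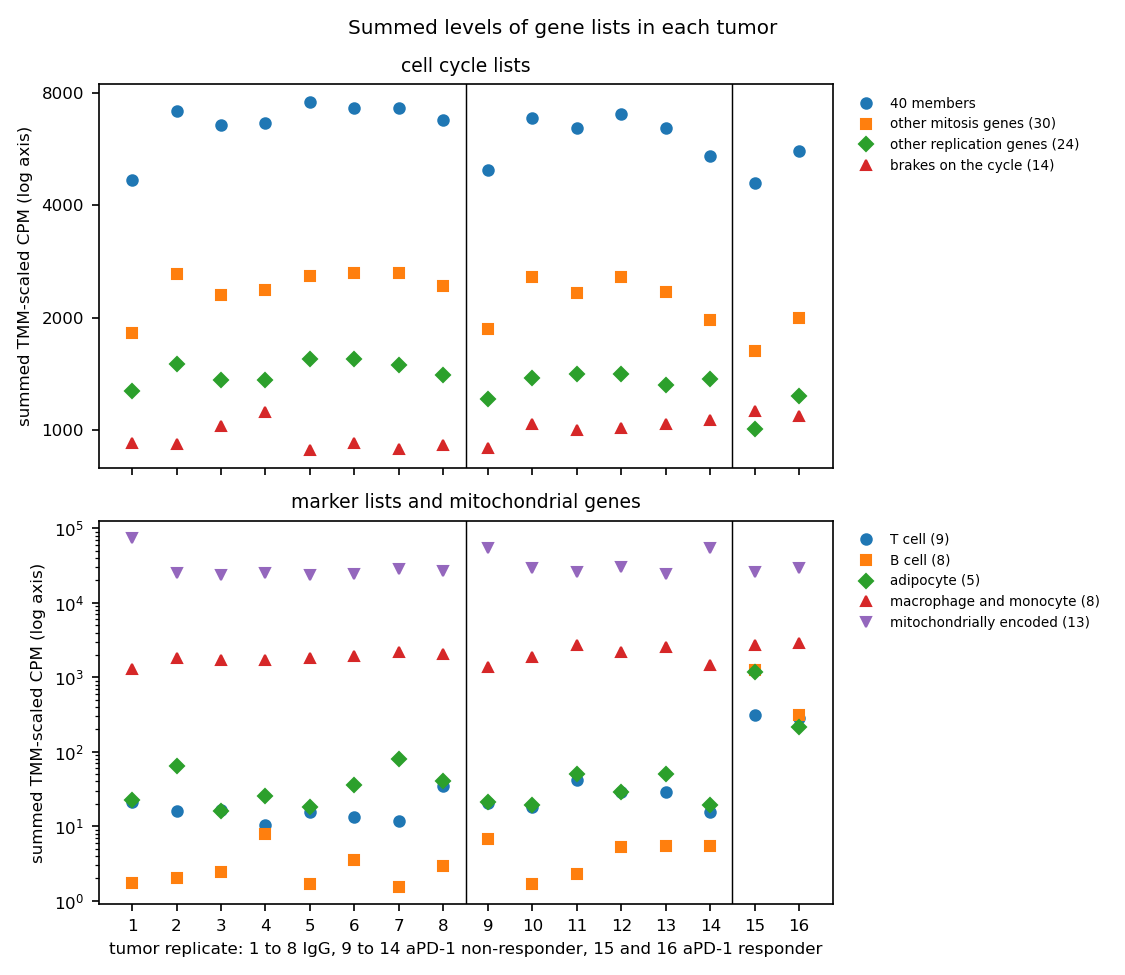
Summed TMM-scaled CPM (log axis) of cell cycle lists (top) and of marker lists and the mitochondrially encoded genes (bottom) in tumor replicates 1 to 16, with the number of genes in each list in the legend. The members and the other mitosis genes dip in tumors 1, 9, 14, 15 and 16, whereas T cell, B cell and adipocyte markers are high in 15 and 16.

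Across tumors, levels of most members went together. The median Pearson correlation of log2 CPM over 780 pairs of members was 0.57 over 16 tumors, and 0.71 over the 13 tumors without a high mitochondrial share. Pairs with a correlation below 0 numbered 111 in the first case and 4 in the second. Over the 8 IgG controls alone, replicate 1 included, the median was 0.61 and 194 pairs were below 0. There Foxm1, Ube2c and E2f1 ran against the mean of the other members (r = -0.81, -0.78 and -0.65). Over 16 tumors Kif20a, Tpx2 and Aurka were most like the mean of the other members (up to r = 0.96), and Foxm1, Ube2c and Plk1 least (r = -0.24, -0.08 and 0.00). Over 13 tumors the value for Ube2c was 0.83 and that for Foxm1 0.52. These values describe genes measured in the same libraries and at the same depth. Those over 16 and 13 tumors include the difference between responders and the rest. Members with CHR letters in their window had a median log2 fold change of -0.36 against non-responders (16 genes), and those with a window but without the letters had -0.30 (14 genes). The E2F letters went with a median of -0.13 (6 genes) and their absence with -0.35 (24 genes). In the 13 tumors the medians were -0.52 with and -0.37 without the CHR letters, and -0.33 with and -0.50 without the E2F letters.

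Further genes of the cycle, taken from lists outside the 40, were read in the same fits, where 4.34% of all genes were lower than in non-responders (14.7% in 13 tumors) and 5.17% lower than in IgG controls. Of 24 other replication genes, 6 were lower and 0 higher in responders than in non-responders (median -0.24, 8 lower and 0 higher in 13 tumors). Dut, which removes dUTP from the nucleotide pool, led at -0.69 (SE 0.14, adjusted p = 0.00187). Chaf1b, a subunit of the chromatin assembly factor CAF-1, followed at -0.52 (SE 0.13, adjusted p = 0.00736). Of 30 other mitosis genes, 4 were lower and 0 higher (median -0.30, 24 lower in 13 tumors), led by Cenpa, the centromeric histone, at -0.46 (SE 0.11, adjusted p = 0.007) and Cks2, a subunit that binds CDK1, at -0.59 (SE 0.15, adjusted p = 0.00973). Of 11 other cyclins, CDKs and CDC25 genes, 2 were lower: Cdk4, the partner of cyclin D, at -0.50 (SE 0.13, adjusted p = 0.0126) and Dbf4, the activator of the CDC7 kinase, at -0.48 (SE 0.14, adjusted p = 0.0257). In 13 tumors 4 of these 11 were lower and 1 was higher, where 17.8% of all genes were higher. Against IgG controls the counts of lower genes were 7, 7 and 3, with 0 higher.

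Of 14 genes that restrain the cycle, 3 were higher and 1 lower in responders than in non-responders, shares near the 15.4% and 4.34% of all genes, and the same 4 passed against IgG controls. Btg2, an antiproliferative gene also known as an early response gene, measured 84.6 and 52.3 CPM in responders and 9.65 to 24.01 CPM in the other 14 tumors, with a log2 fold change of 2.31 (SE 0.28, adjusted p = 1.42e-05). Rb1, the retinoblastoma protein, measured 36.9 and 34.0 CPM against 16.3 to 27.6 CPM (0.72, SE 0.18, adjusted p = 0.00727), and its relative Rbl2 had a log2 fold change of 0.58 (SE 0.17, adjusted p = 0.0253). Cdkn2b, the p15 inhibitor of CDK4 and CDK6, went the other way, at 8.69 and 7.96 CPM against 18.4 to 35.0 CPM (-1.65, SE 0.26, adjusted p = 0.000235). Cdkn1a, the p21 inhibitor, measured 50.9 and 68.5 CPM in responders, within the 32.9 to 81.1 CPM of the other tumors, and was not called (0.08, SE 0.31, adjusted p = 0.903).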

How the data were processed

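Per the labels and the study's methods, poly(A) strand-specific libraries from 16 MC38 tumors were sequenced, aligned by the authors with STAR 2.6 to GRCm38 and quantified with RSEM 1.3.0 on Ensembl annotation. The deposited values are expected counts per gene, of which 7.83% were not whole, and they were rounded here to whole numbers. The 92 spike-in entries, with at most 185 counts in a tumor, were left out of library sizes and tests. Depth was 26603449 to 39948866 counts per tumor.

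Symbols and coordinates came from GENCODE vM21 (GRCm38) and matched 53274 of 53465 identifiers, and promoter windows came from RefSeq. Genes were filtered with edgeR's default rule, scaled by TMM and tested in 1 fit of the 3 groups with the robust quasi-likelihood test of edgeR 4.0.16 in R 4.3.3. All aPD-1 tumors were tested against IgG in a fit of 2 groups. CPM per kilobase used the union of exons. A standard error is the absolute log2 fold change divided by the square root of the F statistic. The steps were tested on simulated data. The planted changes were of 2-fold or more and as often up as down. The called members changed by less, so the recovery of changes of their size was not tested. Alternatives were DESeq2 1.42.0, other scalings and filters, fits of the 2 groups alone, each tumor left out, and fits that allowed for the mitochondrial share.

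Replicates were separate mice, and no replicate numbers pair tumors. The members and lists were chosen with earlier results of these data known. Genes given in full were members with an adjusted p below 0.05 in a comparison (at most 12 each), the member of highest level per length in each role, Mki67, Ccnd1 and Cdkn1a, the 2 members of smallest p where none passed, the members of largest and smallest spread over IgG controls, and the 2 genes of smallest p in each other cell cycle list. Values of other members are given for context and were chosen after their values were seen.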

Additional observations from a re-analysis of the deposited data

Results flagged for a closer look

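Each of the 40 members was looked at in the IgG and NR groups (80 groups) for a tumor far from the rest by Dixon's test, which chance alone flags in about 1 group in 20. It picked out 18 values, all of them in IgG replicate 1, the tumor with 7.32% of counts from mitochondrially encoded protein genes.

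In S phase entry, replication and nucleotide supply, replicate 1 was low for Ccne2 (16.9 CPM, other IgG tumors 36.2 to 49.3), Mcm2 (86.1), Mcm4 (71.9), Mcm5 (63.6), Mcm6 (165), Mcm7 (142) and Rrm1 (100.4 CPM, other IgG tumors 216 to 285). In mitosis it was low for Ccna2 (93.9), Ccnb1 (75.6), Aurka (49.0), Bub1 (88.8), Bub1b (82.8), Kif11 (81.3 CPM, other IgG tumors 169 to 219), Kif20a (64.1), Kif23 (78.9), Tpx2 (114) and Top2a (487 CPM, other IgG tumors 839 to 1106). Ube2c was the exception, high in replicate 1 at 211 CPM against 102 to 141 CPM. For these genes the fold changes of responders without replicate 1, 9 and 14 are in the fits of 13 tumors.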

How the results depend on the processing

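The median log2 fold change of the members stayed below 0 in every alternative of the 4 comparisons, from -0.53 to -0.23 for responders against non-responders and from -0.62 to -0.34 against IgG controls, and 0 members were called higher in any. The share of all genes called was worked out only for the main fits of 16 and 13 tumors and for the covariate. Counts of lower members depended on the setting. For responders against non-responders (8) and against IgG controls (12) they were 0 and 0 with a fold change above 2 required, 3 and 3 with total counts alone, 17 and 22 with the mitochondrial share as a covariate, 29 and 39 without the 3 tumors of high share, 14 and 30 without IgG replicate 1, and 1 and 1 without responder replicate 15. Over all single tumors left out they ran from 1 to 14 and from 1 to 30, and the medians from -0.53 (without responder replicate 16) to -0.23 and from -0.62 to -0.35. Total counts moved the median of all genes from 0.02 to 0.08 and from -0.02 to 0.10, and that of the members to -0.27 and -0.34. In the 13 tumors, total counts gave 9 and 12 (29 and 39 by TMM) with medians of 0.11 and 0.13 over all genes (from -0.02 and -0.05) and of -0.35 and -0.38 over the members. Without responder replicate 15 the 13 tumors gave 2 and 8, and single tumors left out gave counts of 2 to 31 and 8 to 39 and medians of -0.52 to -0.29 and -0.61 to -0.35. For aPD-1 against IgG in 13 tumors, DESeq2 called 3 members lower and leaving out NR replicate 10 gave 2, so that single tumors left out gave 0 to 2. The causes were not tested.

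Of the named members, Cdc25c kept its call in all 24 alternatives of both responder comparisons (adjusted p at most 0.0211 and 0.024), and Cdk1 lost its call only without responder replicate 15 (adjusted p 1.18e-05 to 0.0945 against non-responders). Mki67 had adjusted p of 0.356 to 0.967 against non-responders and 0.0385 to 0.653 against IgG controls. Ube2c and Plk1 lost theirs against IgG controls in 13 of 24. Mcm4 against non-responders (0.05) turned negative without a filter on low counts (-0.027), without the 3 tumors (-0.14), with the covariate (-0.055) and without IgG replicate 1 (-0.012), NR replicate 9 (-0.039) or responder replicate 16 (-0.11), and ran from -0.11 to 0.091 over single tumors left out. No paired analysis was possible because the groups share no replicate numbers. With 2 responders, the spread within that group rests on 1 difference between tumors.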

Other observations

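The keratins Krt8 and Krt18, near 0 in the IgG and NR tumors, stood higher in the responders, in which the cell cycle members were lower. Krt8 measured 31.9 and 13.1 CPM in replicates 15 and 16 and at most 1.37 CPM elsewhere, and Krt18 measured 33.3 and 11.3 CPM against at most 1.80 CPM. Their log2 fold changes against non-responders were 5.99 (SE 0.93, adjusted p = 0.000176, edgeR's quasi-likelihood test) and 5.61 (SE 1.16, adjusted p = 0.00228). Of the other keratins read, Krt19 was called higher as well, at 5.61 (SE 0.97). Krt20, at 1.43 (SE 0.76), was not called. Neither were Krt5, Krt14, Krt10 and Krt1, at 0.46, -1.06, -0.88 and -2.71. Of 5 plasma cell markers, 4 were called higher in responders than in non-responders. Which cells carry the keratin transcripts was not tested.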
